A study of Mus musculus with 24 samples.

Results

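Phase II conjugation enzymes join a polar group to drugs, hormones, bile acids and other small molecules. They were taken from the mouse liver count table by gene symbol, as glutathione S-transferases (Gst with class a, k, m, o, p, t or z, and the membrane-bound Mgst), UDP-glucuronosyltransferases (Ugt1a, Ugt2a, Ugt2b and Ugt3a) and sulfotransferases (Sult). The rule found 67 of the 56205 genes in the table, and 50 of them passed the filter on low counts, among 14109 genes that did so in all. By family, 20 of 22 soluble GST genes, 2 of 3 MGST genes, 7 of 9 UGT1A genes, 10 of 12 UGT2 and UGT3 genes and 11 of 21 SULT genes were tested.

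The samples were whole livers of C57BL/6J mice, 12 kept on a control diet and 12 on a methionine- and choline-deficient diet (MCD), both for 20 weeks. The labels call the control diet chow, while the study's methods list a control diet made for MCD. The MCD diet, which the study's methods give as high in fat, is a model of steatohepatitis with fibrosis, so the diets may differ in more than methionine and choline. The study's results name a high-fat, choline-deficient diet with defined amino acids (CDAHFD) among its mouse models. Its methods list no diet under that name, and whether it is this MCD diet is not stated. How much methionine the MCD diet held is not given. Both sexes were included in each diet, but no label gives the sex of a single library. Labels number the libraries of a diet as replicates and say no more of their source, so p-values measure the spread between these libraries.

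Glutathione S-transferases couple reactive molecules to glutathione, UDP-glucuronosyltransferases add glucuronic acid or another sugar from a UDP-sugar, and sulfotransferases add sulfate from the donor PAPS. The liver, and above all its hepatocytes, is the main site of these reactions, and bilirubin, bile acids, steroid hormones and many drugs leave the body as their products. Xenobiotic sensors such as the receptors encoded by Nr1i3 and Nr1i2, the aryl hydrocarbon receptor and Nrf2 are known to control many of these genes.

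The Ugt1a locus is a cluster in which each gene has its own first exon and start, while the remaining exons are shared. In GENCODE M21 on GRCm38, the mm10 assembly, all 9 Ugt1a genes lie on the plus strand of chromosome 1 and overlap on that strand. Of the 51-base words in their transcripts, from 52.0% in Ugt1a6a to 79.6% in Ugt1a6b also occur in another gene. How reads from the shared exons were assigned is not given in the sources used here, so the split among Ugt1a genes is less certain than their sum. The 150 bases before the start of 4 Ugt1a genes and of Ugt2a3 are shown because these starts are where the genes differ, and because Ugt1a5 and Ugt2a3 were the members that fell with no overlap between the diets. Sequences are from RefSeq (GRCm38.p6), 5′ to 3′ on the gene's strand. Capitals mark the xenobiotic response element core GCGTG and the antioxidant response element core TGACNNNGC, on either strand.
Ugt1a9 (plus strand, chr1:88070629-88070778): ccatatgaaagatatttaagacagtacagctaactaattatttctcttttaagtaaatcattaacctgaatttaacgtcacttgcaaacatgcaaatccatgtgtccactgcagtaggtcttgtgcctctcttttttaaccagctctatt
Ugt1a6a (plus strand, chr1:88134659-88134808): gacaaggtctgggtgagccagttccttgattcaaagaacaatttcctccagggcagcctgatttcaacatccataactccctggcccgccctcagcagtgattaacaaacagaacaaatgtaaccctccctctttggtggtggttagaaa
Ugt1a5 (plus strand, chr1:88165862-88166011): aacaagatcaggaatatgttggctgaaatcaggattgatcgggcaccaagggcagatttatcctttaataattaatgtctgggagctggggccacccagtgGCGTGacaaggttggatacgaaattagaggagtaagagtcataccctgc
Ugt1a1 (plus strand, chr1:88211809-88211958): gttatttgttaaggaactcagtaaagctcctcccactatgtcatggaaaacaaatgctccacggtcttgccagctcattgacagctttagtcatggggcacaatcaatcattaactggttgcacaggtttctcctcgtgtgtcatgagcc
Ugt2a3 (minus strand, chr5:87337196-87337345): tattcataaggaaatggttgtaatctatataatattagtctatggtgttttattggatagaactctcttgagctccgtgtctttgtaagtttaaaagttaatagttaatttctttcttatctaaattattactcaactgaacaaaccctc

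The xenobiotic response element core lay at bases -49 to -45 from the start in Ugt1a5. The 250 bases before the starts of Ugt1a1, Ugt1a6a, Ugt1a9 and Ugt2a3 held neither core. RefSeq gave a window for 59 of the 67 members, 71 windows in all. The xenobiotic core was in 12 of these (16.9%) and in 28.2% of all 32851 windows of that length. The antioxidant core was in 4 (5.63%, against 10.2% of all). GCGTG can overlap the end of the antioxidant core, as it did in Gstm5. These matches describe letters and do not show binding.

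The windows of the GST and SULT genes that rose most are shown for comparison. Over 250 bases before the start, Gsta1 and Gsta2 were 71.4% identical in a global alignment.
Gsta1 (plus strand, chr9:78230519-78230668): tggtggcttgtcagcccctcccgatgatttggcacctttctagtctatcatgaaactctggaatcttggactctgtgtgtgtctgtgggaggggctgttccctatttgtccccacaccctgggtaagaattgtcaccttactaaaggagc
Gsta2 (minus strand, chr9:78347146-78347295): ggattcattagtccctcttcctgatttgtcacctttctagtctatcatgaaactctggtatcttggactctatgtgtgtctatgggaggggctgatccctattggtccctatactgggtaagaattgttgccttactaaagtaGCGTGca
Sult1e1 (minus strand, chr5:87591612-87591761): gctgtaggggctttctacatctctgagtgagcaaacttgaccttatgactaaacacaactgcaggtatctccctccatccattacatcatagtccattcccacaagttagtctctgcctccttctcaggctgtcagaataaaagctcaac

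In Gsta2 the xenobiotic core lay at -7 to -3. The windows of Gsta1 and Sult1e1 held none of the letters searched.

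Depth was similar between the diets, from 16793207 to 24915175 counts per control library and from 16388650 to 24577848 per MCD library. TMM scaling factors did not overlap (0.642 to 0.973 in control, 1.07 to 1.26 in MCD). Against scaling by total counts alone, the median over all tested genes differed by 0.37 in log2 fold change, and every fold change below is relative to the TMM scale. Control replicate 12 had the lowest factor (the next was 0.792) and stood apart on principal components 2 and 3, at 75.4 and 78.8, where the other control libraries ran from -51.2 to 39.4 and from -32.3 to 20.8. Levels are CPM, counts scaled to TMM-adjusted library size, and the floor of 3 counts equalled 0.109 to 0.227 CPM. Counting intervals and floors cover counting error only.

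In MCD livers 7 of the 50 tested enzymes were higher and 18 were lower (edgeR quasi-likelihood test, FDR ≤ 0.01 and absolute log2 fold change above 0.5). Those shares are 14.0% and 36.0%, while 19.2% of all tested genes were higher and 19.1% were lower. The 7 that rose were 6 soluble GST genes and Sult1e1. Every called UGT gene was lower. The median log2 fold change was -0.42 over the 50 enzymes and -0.10 over all tested genes. By family it was -0.10 for soluble GST genes, -0.04 for the 2 MGST genes, -0.62 for UGT1A, -0.57 for UGT2 and UGT3, and -0.87 for SULT. The SULT median was the value of Sult2a2 (SE 1.12, edgeR FDR 0.515), a gene that moved with the sex-linked score described below, and with that score in the fit the median of the family was -0.37, while those of UGT1A and of UGT2 and UGT3 were -0.61 and -0.53. All 7 UGT1A and all 10 UGT2 and UGT3 values were below 0 on the TMM scale. With total counts alone, 10 enzymes were higher and 9 were lower (32.2% and 6.01% of all tested genes), and the UGT values of Ugt1a7c, Ugt2b35, Ugt2b37 and Ugt3a2 turned positive. In bulk liver, fewer hepatocytes and less RNA per hepatocyte cannot be told apart.

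**Figure D1:**
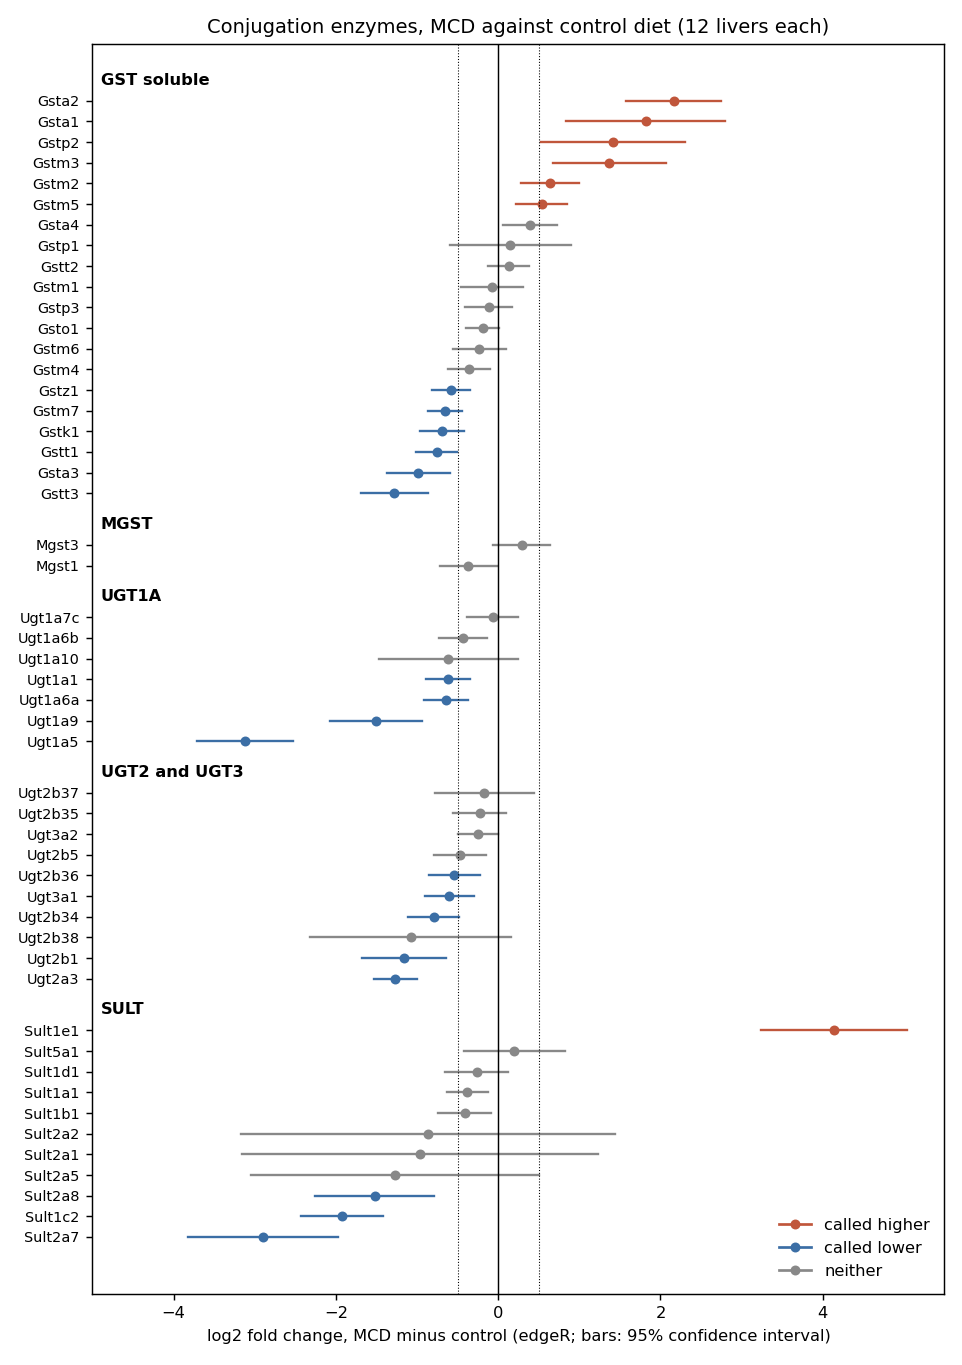
Log2 fold change (MCD minus control, edgeR, TMM scale) of the 50 tested conjugation enzymes by family, with 95% confidence intervals and dotted lines at 0.5 and -0.5. Points are coloured by call, and 7 lie to the right as higher and 18 to the left as lower.

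Cell type markers moved with diet in the same livers. For comparison, 19.2% of all tested genes were higher and 19.1% lower, and 32.2% and 6.01% with total counts alone. Of the hepatocyte markers, 5 of 7 tested were lower, and their summed level ran from 78904 to 193576 CPM in control and from 63064 to 90117 CPM in MCD livers. Cholangiocyte markers were higher in 7 of 8, with sums of 50.4 to 169 CPM in control and 486 to 947 CPM in MCD. Macrophage markers were higher in 6 of 10 and lower in 4, with sums of 172 to 446 and 1525 to 3352 CPM. Stellate and mesenchymal markers were higher in 7 of 8 and lower in 1, Lrat. Its log2 fold change was -0.93 (edgeR FDR 3.63e-05), a call lost with total counts alone. Endothelial markers were lower in 5 of 6 and lymphocyte markers higher in 4 of 7. Pericentral hepatocyte markers were lower in 2 of 8 and periportal ones in 3 of 8, with none higher. No marker of these lists had a median of 0 counts in either diet. With total counts alone, 0 of the 7 hepatocyte markers were lower and 1, Ahsg, was higher, 2 of 6 endothelial, 2 of 8 pericentral and 0 of 8 periportal markers were lower, and 1 of 10 macrophage markers was. The part of these shifts in the enzyme values was not tested.

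Alpha-class GST genes moved in opposite directions. Gsta2 ran from 2.27 to 13.9 CPM in control livers (median 5.35) and from 16.4 to 54.1 CPM in MCD livers (median 28.0). Every MCD liver lay above every control liver, which 9.5% of all tested genes also did. The log2 fold change was 2.16 (SE 0.28, 95% confidence interval 1.58 to 2.75, edgeR FDR 3.01e-07). Gsta1 ran from 0.799 to 47.5 CPM in control (median 5.43) and from 17 to 70.6 CPM in MCD (median 29.2). The groups overlapped, because 2 control livers reached the MCD range, though all 12 MCD livers exceeded the control median. Its fitted change was 1.82 on the log2 scale (SE 0.48, edgeR FDR 0.00185), and 2.47 without control replicate 11, the highest control. Since 90.3% of the 51-base words of Gsta1 occur in other genes, chiefly the Gm3776 gene, the sum of Gsta1, Gsta2 and Gm3776 was also taken. It ran from 3.20 to 65.3 CPM in control (median 11.6) and from 35.3 to 128 CPM in MCD (median 61.3).

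Gsta3, the alpha-class gene with the highest level per kilobase, fell. It ran from 499 to 2362 CPM in control livers (median 1060.4) and from 366 to 729 CPM in MCD livers (median 578), with 3 MCD livers below every control. The fitted change was -0.98 on the log2 scale (SE 0.19, edgeR FDR 6.36e-05). The highest control value was that of replicate 12. Within a library, the ratio of Gsta2 to Gsta3 counts is free of library scaling. It ran from 0.00189 to 0.0279 in control and from 0.0358 to 0.0742 in MCD livers, with no overlap. Gsta4, which acts on aldehydes from lipid peroxidation, had a log2 fold change of 0.39 (95% confidence interval 0.06 to 0.73, edgeR FDR 0.0354), and was called higher without control replicate 12, at 0.53.

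Mu-class genes held the soluble GST gene with the highest level per kilobase, Gstm1, which ran from 841 to 3471 CPM in control (median 1266) and from 1021 to 2199 CPM in MCD (median 1397). Its log2 fold change was -0.08 (95% confidence interval -0.46 to 0.31, edgeR FDR 0.734), and the groups overlapped throughout. Gstm3 ran from 18.7 to 180.2 CPM in control and from 72.6 to 304 CPM in MCD, and rose by 1.37 on the log2 scale (SE 0.34, edgeR FDR 0.000965). Gstm2 rose by 0.64 (SE 0.17, edgeR FDR 0.00237) and Gstm5 by 0.54 (SE 0.15, edgeR FDR 0.0037). The call of Gstm5 was lost without control replicate 4, 6 or 10, at 0.48 to 0.50. Gstm7 fell by 0.65 (SE 0.10, edgeR FDR 4.46e-06), with 11 of 12 MCD livers below every control. Its call was lost with upper-quartile factors and with total counts alone, at -0.50 and -0.26. Gstm4 and Gstm6 passed no threshold, at -0.36 and -0.23.

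Pi-class genes share sequence, 33.5% of the 51-base words of Gstp1 and 54.1% of those of Gstp2 occurring elsewhere. Gstp2 ran from 1.75 to 45.8 CPM in control (median 5.52) and from 7.83 to 57.2 CPM in MCD (median 20.3), and all 12 MCD livers exceeded the control median. Its fitted change was 1.42 on the log2 scale (SE 0.43, edgeR FDR 0.00604). The call was near the threshold. It was lost without any one of control replicates 2, 4, 5, 6, 7 and 10 and MCD replicates 2 and 11 (1.27 to 1.37, edgeR FDR 0.01 to 0.0126), and the value was 2.10 without control replicate 12. Gstp1 ran from 194 to 2838 CPM in control (median 554) and from 517 to 1198 CPM in MCD (median 788), with a log2 fold change of 0.15 (95% confidence interval -0.60 to 0.90). The highest control value was again that of replicate 12, at more than the highest MCD value, and the log2 fold change was 0.61 without it (edgeR FDR 0.0756). Gstp3 had a log2 fold change of -0.12.

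The theta, kappa and zeta classes were lower or did not pass. Gstt3 ran from 26.8 to 124 CPM in control (median 68.8) and from 15.7 to 39.1 CPM in MCD (median 29.0). The fitted change was -1.28 on the log2 scale (SE 0.20, edgeR FDR 4.51e-06), and all 12 MCD livers lay below the control median. Gstt3 overlaps Gm20441 on the same strand, with 12.2% of its 51-base words shared. Gstt1 ran from 163 to 388 CPM in control (median 240.0) and from 109.5 to 181 CPM in MCD (median 139), and fell by 0.76 (SE 0.12, edgeR FDR 7.58e-06). In 8 MCD livers it was below every control. Gstk1, an enzyme of mitochondria and peroxisomes, fell by 0.70 (SE 0.13, edgeR FDR 5.89e-05). Gstz1, which isomerises maleylacetoacetate in tyrosine breakdown, fell by 0.58 (SE 0.11, edgeR FDR 7.93e-05), and it overlaps Gm6566 and Pomt2 on the other strand. Gstt2 and Gsto1 had log2 fold changes of 0.13 and -0.19. With total counts alone the calls of Gstt1, Gstk1 and Gstz1 were lost, at -0.36, -0.29 and -0.21.

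Among the membrane-bound GST genes, 0 of 2 passed by edgeR, DESeq2 or limma-voom, and 1 had an unadjusted p under 0.05 in edgeR. Mgst1 had the highest level per kilobase of all 50 enzymes, 1696 CPM per kilobase in control and 1315 in MCD. It ran from 918 to 2889 CPM in control (median 2060.4) and from 1224 to 1803 CPM in MCD (median 1519.7). All 12 MCD livers lay below the control median, but within the control range, and the log2 fold change was -0.37 (95% confidence interval -0.72 to -0.01, edgeR FDR 0.0653). Mgst3 had a log2 fold change of 0.29 (95% confidence interval -0.06 to 0.64).

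**Figure D2:**
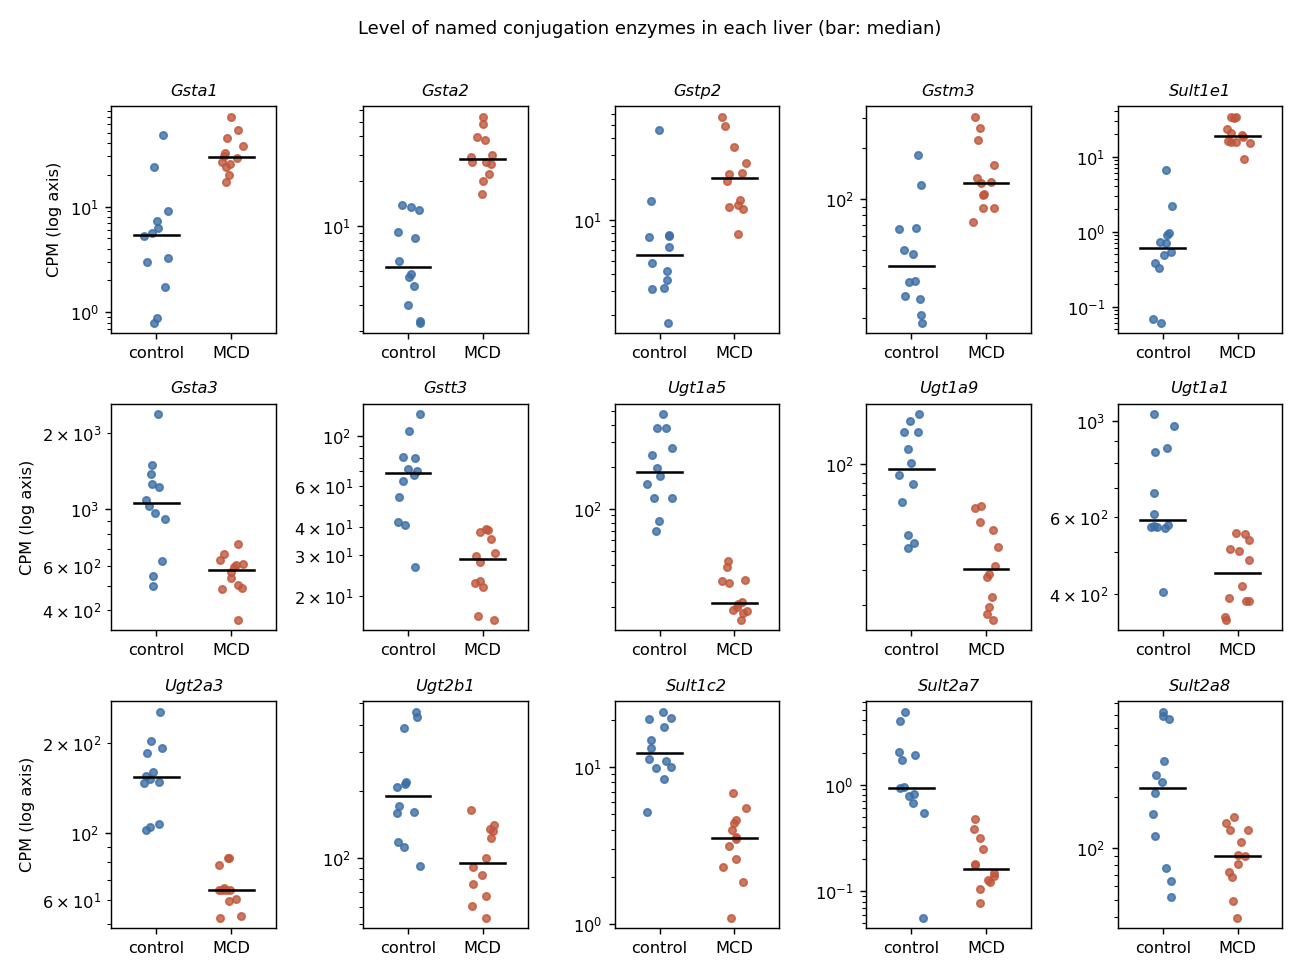
Level in CPM (log axes that differ between panels) of 15 enzymes in each of the 12 control and 12 MCD livers, with the median as a bar. Gsta2 and Sult1e1 lie wholly higher, and Ugt1a5 and Ugt2a3 wholly lower, in MCD livers.

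Ugt1a5 showed the largest fall among the tested enzymes. It ran from 69.2 to 477 CPM in control livers (median 185) and from 16.0 to 42.8 CPM in MCD livers (median 21.3). Every MCD liver lay below every control liver, as for 4.88% of all tested genes. The log2 fold change was -3.12 (SE 0.29, 95% confidence interval -3.71 to -2.53, edgeR FDR 7.75e-10). Its mean level per kilobase ranked 12 among the 50 enzymes in control and 41 in MCD.

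Of the other 6 tested UGT1A genes, 3 were called lower (19.1% of all tested genes were), each by less than Ugt1a5. Ugt1a1, which conjugates bilirubin and has the highest level per kilobase of the cluster, ran from 403 to 1037 CPM in control (median 593) and from 348 to 552 CPM in MCD (median 448). Its fitted change was -0.62 on the log2 scale (SE 0.13, edgeR FDR 0.000254), with 5 MCD livers below every control. Ugt1a9, which acts on phenols, ran from 38.2 to 176 CPM in control (median 94.5) and from 16.9 to 62.2 CPM in MCD (median 30.1). It fell by 1.5 (SE 0.28, edgeR FDR 3.5e-05), and 7 MCD livers were below every control. Ugt1a6a, an enzyme of small planar phenols, ran from 69.6 to 179.6 CPM in control (median 142) and from 59.5 to 124 CPM in MCD (median 90.8). It fell by 0.64 (SE 0.13, edgeR FDR 0.000169). The calls of Ugt1a1 and Ugt1a6a were lost with upper-quartile factors, at -0.47 and -0.49, and with total counts alone, at -0.26 and -0.28. Ugt1a6b, which shares 79.4% of its 51-base words with Ugt1a6a, missed the threshold at -0.43 (edgeR FDR 0.0101), and Ugt1a10 and Ugt1a7c were at -0.61 and -0.06.

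The summed level of the 9 Ugt1a genes does not depend on how counted reads were split among them, though it would miss reads dropped as ambiguous. It ran from 951 to 1746 CPM in control (median 1199) and from 618 to 838 CPM in MCD (median 710), with no overlap on the TMM scale. As CPM of total counts the sum ran from 742 to 1548 in control and from 687 to 992 in MCD, with 9 MCD livers inside the control range, and control replicate 12 was the lowest control. The ratio of Ugt1a5 to Ugt1a1 counts does not depend on library scaling. It ran from 0.122 to 0.700 in control and from 0.0350 to 0.0781 in MCD, again with no overlap. As a share of the summed level per kilobase of the tested Ugt1a genes, Ugt1a5 held 7.55% to 32.2% in control (median 15.7%) and 2.51% to 5.68% in MCD (median 3.52%). Ugt1a1 held 40.5% to 65.3% in control (median 55.9%) and 56.2% to 72.0% in MCD (median 66.2%).

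UGT2 and UGT3 genes were lower in 5 of 10, against 19.1% of all tested genes. With total counts alone 2 of the 10 were lower, Ugt2a3 and Ugt2b1, against 6.01% of all. Ugt2a3 ran from 103 to 253 CPM in control (median 153) and from 52.3 to 82.8 CPM in MCD (median 64.8), with no overlap. The log2 fold change was -1.27 (SE 0.13, 95% confidence interval -1.53 to -1.0, edgeR FDR 4.44e-09). Ugt2b1 ran from 91.7 to 459 CPM in control (median 189.8) and from 53.7 to 164 CPM in MCD (median 95.2). It fell by 1.16 (SE 0.25, edgeR FDR 0.000285), and 6 MCD livers were below every control. Ugt2b34 ran from 112 to 370.2 CPM in control (median 297) and from 124 to 189 CPM in MCD (median 161), and fell by 0.79 (SE 0.15, edgeR FDR 5.84e-05). The lowest control value was that of replicate 12, and all MCD livers were below the control median.

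Ugt2b5, the member of this family with the highest level per kilobase, sat just outside the threshold. It ran from 245 to 809 CPM in control (median 497) and from 270.0 to 446 CPM in MCD (median 341), with a log2 fold change of -0.47 ± 0.15 (SE, by edgeR at an FDR of 0.00989). Just inside it, Ugt2b36 had a log2 fold change of -0.54 ± 0.15 (SE, by edgeR at an FDR of 0.00336), and that call was lost under all 9 other scalings, filters, tools and covariates, at -0.49 to -0.15. It was also lost in 12 of the 24 fits that left out 1 library, at -0.50 to -0.45 (control replicate 1, 10 or 12, or MCD replicate 2, 3, 5, 6, 7, 8, 10, 11 or 12). Ugt2b5 was called lower without control replicate 4 or 6, at -0.53 and -0.52. Of the Ugt3a genes, which use UDP-sugars other than UDP-glucuronic acid, Ugt3a1 fell by 0.60 (SE 0.15, edgeR FDR 0.000886) and Ugt3a2 was at -0.25 (95% confidence interval -0.50 to -0.002). Ugt2b35, Ugt2b37 and Ugt2b38 were not called, at -0.23, -0.17 and -1.08. Ugt2b38 was past the fold limit but not the FDR limit (SE 0.60, edgeR FDR 0.122). It ran from -1.35 to -0.55 when 1 library was left out.

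Sult1e1, the estrogen sulfotransferase, showed the largest rise. It held 1 to 115 counts per control library and 210 to 914 per MCD library. This was 0.0615 to 6.70 CPM in control (median 0.615) and 9.21 to 33.9 CPM in MCD (median 18.8), and every MCD liver exceeded every control liver. The log2 fold change was 4.14 (SE 0.44, 95% confidence interval 3.24 to 5.04, edgeR FDR 8.67e-09), a fitted fold of 17.6. The highest control was replicate 2, without which the log2 fold change was 4.9. Some control counts were at or below the floor of 3, which leaves the fitted fold imprecise. Its share of the summed SULT level per kilobase was 0.00826% to 0.666% in control and 1.5% to 8.35% in MCD.

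The other called SULT genes fell. Sult2a8, a hydroxysteroid sulfotransferase relative, ran from 52.3 to 627 CPM in control (median 226) and from 39.5 to 152 CPM in MCD (median 90.7). Its fitted change was -1.52 on the log2 scale (SE 0.36, edgeR FDR 0.000623), and the control values spread widely. Sult1c2 ran from 5.20 to 22.6 CPM in control (median 12.2) and from 1.10 to 6.81 CPM in MCD (median 3.53), and fell by 1.93 (SE 0.24, edgeR FDR 1.72e-07). In 10 of 12 MCD livers it was below every control. Sult2a7 held 1 to 85 counts per control library and 2 to 13 per MCD library, 0.0566 to 4.83 CPM (median 0.938) and 0.0777 to 0.472 CPM (median 0.162). It fell by 2.89 (SE 0.45, edgeR FDR 3.7e-06). Control replicate 4 was the lowest control for Sult1c2 and Sult2a7.

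Sult1a1, a phenol sulfotransferase and the SULT gene with the highest level per kilobase, sat just outside the threshold. It ran from 248 to 637 CPM in control (median 432) and from 252 to 425 CPM in MCD (median 328), with a log2 fold change of -0.38 ± 0.13 (SE, by edgeR at an FDR of 0.0108). It overlaps Sgf29 on the other strand. Sult1b1, Sult1d1 and Sult5a1 were at -0.41, -0.26 and 0.20. Sult1a1 held 42.8% to 68.6% of the summed SULT level per kilobase in control (median 51.2%) and 49.2% to 69.0% in MCD (median 62.3%).

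**Figure D3:**
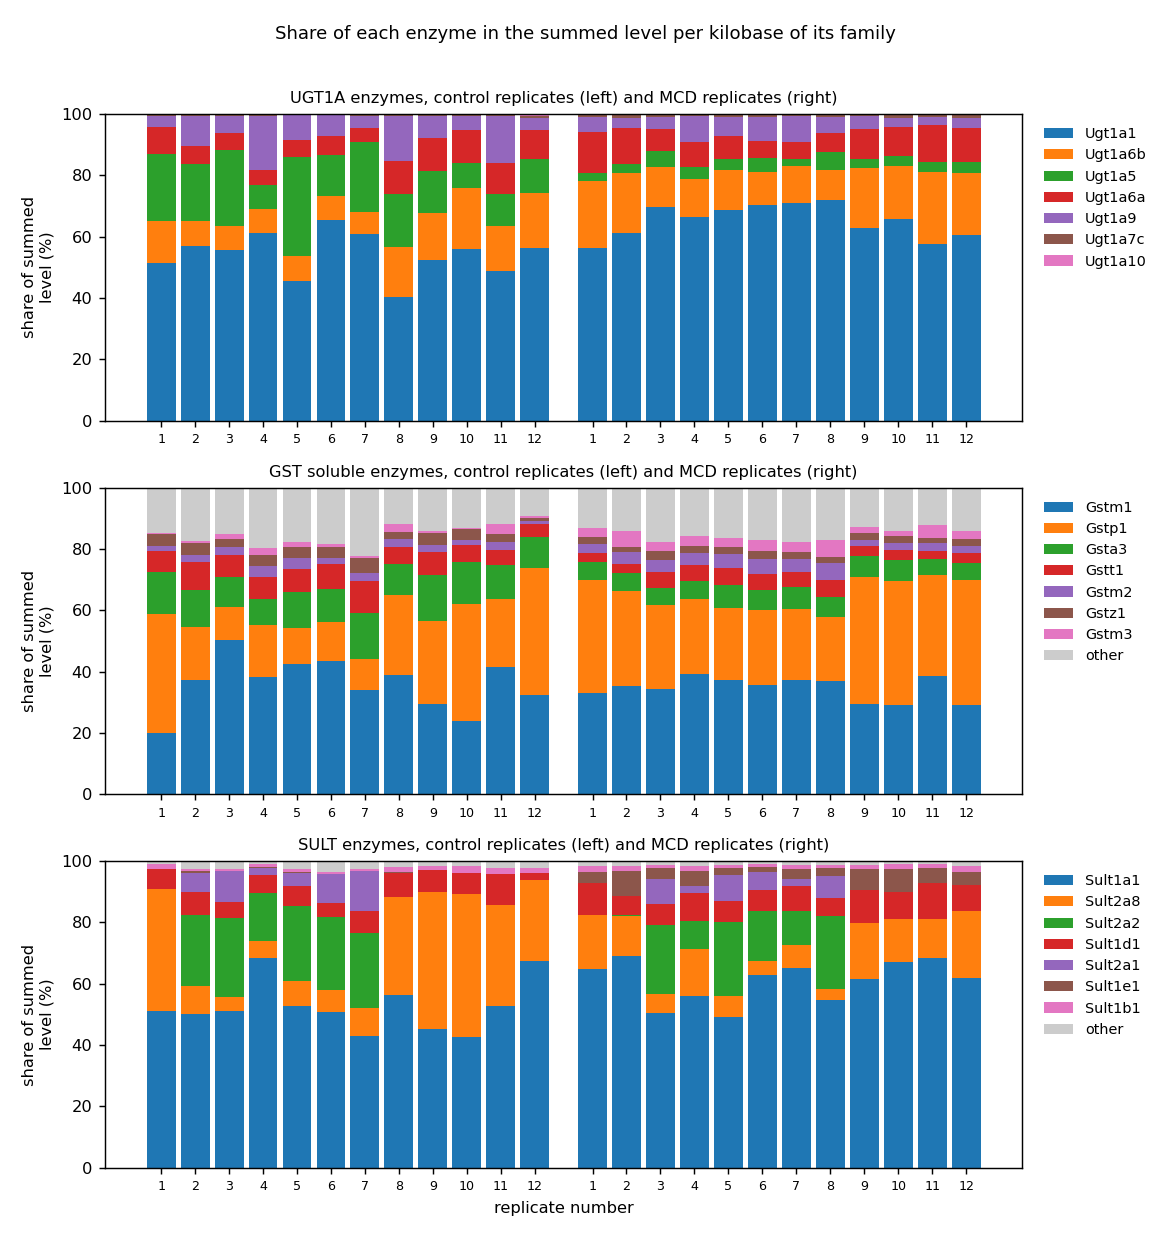
Share (%) of each enzyme in the summed level per kilobase of the tested genes of its family, 1 bar per liver, control replicates on the left and MCD replicates on the right. Ugt1a5 narrows in MCD livers, and Sult1e1 appears there at 1.5% to 8.35%.

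Both sexes were in the series without a label, so a sex-linked expression score (log2 CPM of Xist minus the mean of Ddx3y, Eif2s3y, Kdm5d and Uty) was used as a number only. Its values formed 2 ranges, and each diet had 6 libraries in each, with -8.01 to -5.38 and 11 to 12.5 in control and -7.26 to -5.21 and 10.7 to 11.1 in MCD. In a fit with diet, 15 of 50 enzymes moved with the score (edgeR FDR ≤ 0.01), 5 up and 10 down, while 3.47% of all tested genes did. In that count no fold limit was set. With 2 separate ranges the coefficient compares the ranges and not a trend.

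Hydroxysteroid sulfotransferases of the Sult2a cluster on chromosome 7 had the largest coefficients. Per 10 units of score, Sult2a1 rose by 5.31 (SE 0.30), Sult2a2 by 5.23 (SE 0.21) and Sult2a5 by 4.71 (SE 0.29) on the log2 scale, with edgeR FDR of 5.41e-13, 1.78e-16 and 4.41e-12. Sult2a1 ran from 0 to 141 CPM in control and from 0 to 48.6 CPM in MCD livers, with 0 to 1 counts in the 6 control libraries of the lower score range. Sult2a2 shares 40.7% of its 51-base words with Sult2a1. These genes were not called with diet in either fit. Sult2a1 had a log2 fold change of -0.96 (SE 1.07) with diet alone and -0.41 (SE 0.41, edgeR FDR 0.388) with the score in the fit.

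Other members moved the opposite way with the score. Ugt2b38 fell by 1.42 per 10 units (SE 0.23, edgeR FDR 0.000171), Gstp2 by 0.94, Gstp1 by 0.90, Sult2a8 by 0.76 and Ugt2b1 by 0.60. Mgst1, Ugt1a6a, Ugt1a6b, Ugt2b35 and Ugt2b5 fell by 0.26 to 0.34 per 10 units, while Ugt1a1 rose by 0.29 and Ugt1a5 by 0.48. With the score in the fit 7 enzymes were higher and 17 lower with diet, and the SE of Ugt2b1 fell from 0.25 to 0.14. Gstp2 then had a log2 fold change of 1.53 ± 0.30 (SE, by edgeR at an FDR of 8.33e-05).

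**Figure D4:**
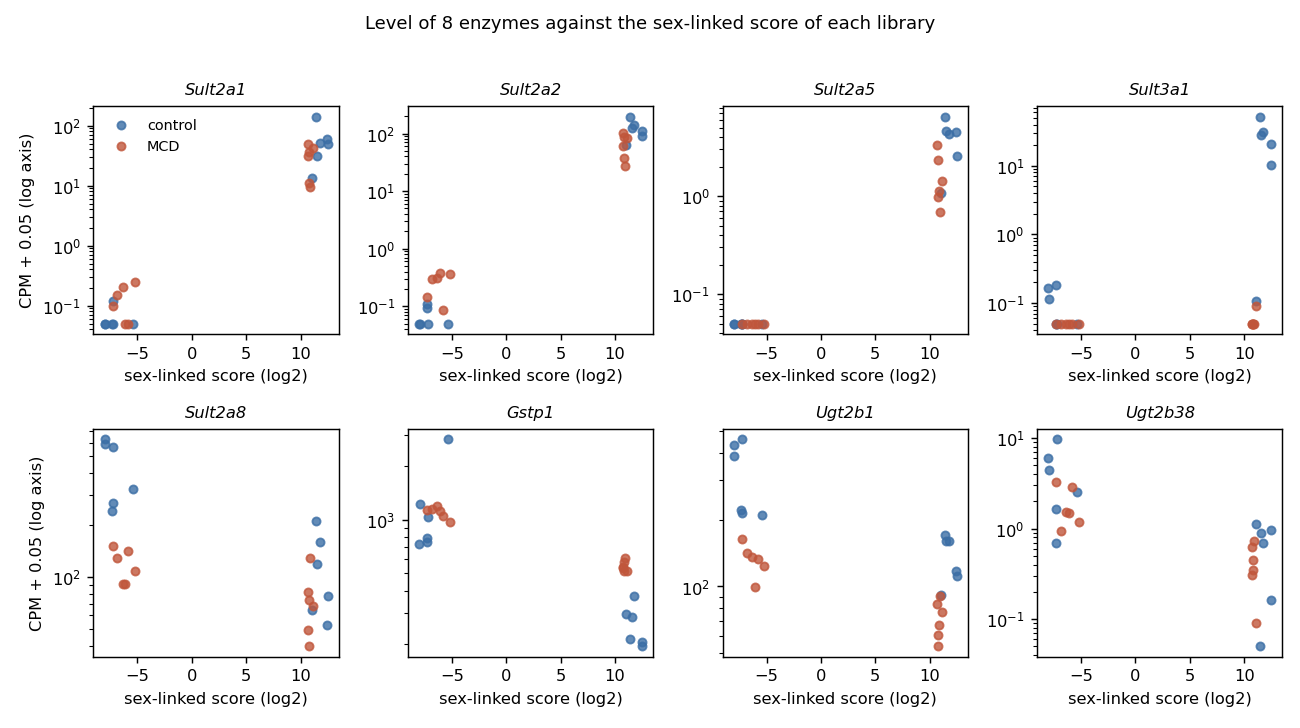
Level in CPM plus 0.05 (log axis) of 8 enzymes against the sex-linked score of each of the 24 livers, by diet. Sult2a1, Sult2a2 and Sult2a5 are high only in the 12 livers of the upper score range, and Sult3a1 is above 10 CPM in 5 control livers and in none of the MCD livers.

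The 17 members that did not pass the filter were read as counts, with no test. Sult3a1 held 183 to 1120 counts in control replicates 2, 3, 5, 6 and 7, at most 3 in the other control libraries, and at most 1 in any MCD library. Its summed counts were 2689 in control and 1 in MCD. Sult3a2 held 7 to 94 counts in the same 5 control libraries and 0 in the rest. Those 5 control libraries were in the upper score range, and the sixth of that range, replicate 4, held 1 count of Sult3a1. Sult2a3 held 127 to 440 counts in the same 5 libraries and 0 to 65 in MCD libraries.

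Sult2b1, a cholesterol sulfotransferase, held 0 to 4 counts per control library and 6 to 49 per MCD library, with no overlap, and it overlaps Gm31597 and Lmtk3 on the other strand. Mgst2 held 0 to 5 and 1 to 23 counts, and Sult4a1 held 0 to 9 and 4 to 25. Ugt1a8 had 170 of its 219 control counts in replicate 12. Gsto2, Sult6b1 and Sult2a4 reached at most 11 counts in a library. Gstt4, Sult1c1, Sult6b2, Ugt1a2 and Ugt2a2 reached at most 4, and Sult2a6 and Ugt2a1 were at 0 in all 24 libraries.

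Spread between livers was wider in control. The SD of log2 CPM was larger in control for 46 of the 50 enzymes, which held for 90.8% of all tested genes. The median SD of the enzymes was 0.564 in control and 0.329 in MCD, where that of all tested genes was 0.388 and 0.205. Without control replicate 12 the count was again 46, against 81.2% of all tested genes. Replicate 12 was the highest control library for 17 of the 50 enzymes and for 29.3% of all tested genes, and the lowest for 2 of the 50 and for 27.8% of all.

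Genes that supply and follow conjugation were described from 4 lists. Of 15 cofactor genes, 2 were higher and 5 lower, against a background of 19.2% and 19.1% of all tested genes. Slc7a11, which imports cystine for glutathione synthesis, held 0 to 0.313 CPM in control and 1.4 to 3.96 CPM in MCD livers (log2 fold change 4.55, SE 0.36, edgeR FDR 5.17e-11). Gss, the last enzyme of glutathione synthesis, rose by 0.57, while Gclc, which catalyses its rate-limiting step, fell by 0.64. For sulfation, the sulfate carrier Slc26a1 fell by 0.93 (203 to 401 CPM in control, 112 to 178 CPM in MCD). Its groups did not overlap on the TMM scale, as for 4.88% of all tested genes. The PAPS synthase gene Papss2 fell by 0.80 and Bpnt1 by 0.74. On the other strand, Slc26a1 overlaps Idua, Gss overlaps Acss2, Gssos1 and Gssos2, and Ugp2 overlaps Gm12043. Ugp2, which makes UDP-glucose for glucuronidation, fell by 0.85 from a median of 478 to 240 CPM. Under total counts alone 5 of the 15 were higher and 1 lower, and of the falls named here only that of Slc26a1 was still called, with 8 MCD livers inside the control range.

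Of 15 genes of xenobiotic and bile acid sensors and their partners, 10 were lower (19.1% of all tested genes) and 0 higher by edgeR, with 0 higher by DESeq2 or limma-voom too, and none of the 15 had a positive log2 fold change in edgeR. Ppara fell by 1.76 (SE 0.20, edgeR FDR 2.51e-08), Nr1i3 by 0.90 and Ahr by 0.63. Nfe2l2, which encodes Nrf2, was at -0.32 and Keap1 at -0.37, inside the fold limit. With total counts alone 3 of the 15 were lower (6.01% of all), Nr1i3 and Ppara among them and Ahr not, and Arnt and Nfe2l2 turned positive.

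Of 16 tested genes of steps after conjugation, 5 were higher and 4 lower, against 19.2% and 19.1% of all tested genes. The dipeptidase genes Dpep2 and Dpep1, whose products trim glutathione conjugates, rose by 5.29 and 2.73, and Abcc1, an export pump for conjugates, rose by 2.14 from 1.43 to 5.10 CPM in control to 9.70 to 18.4 CPM in MCD. All 3 lay wholly above the controls, as did 9.5% of all tested genes. Gusb, the glucuronidase that reverses glucuronidation, rose by 0.54. Abcc2, the canalicular export pump, fell by 0.78 and Abcc3 by 0.53. Scaled by total counts alone, 5 of the 16 were higher and 0 lower (32.2% and 6.01% of all tested genes), with Abcc2 at -0.45 and Abcc3 at -0.17. A list of 13 other genes held further conjugating enzymes together with relatives that do not conjugate, and 3 were higher and 2 lower, shares near the 19.2% and 19.1% of all tested genes. Alox5ap, a membrane protein that aids leukotriene synthesis and is not itself an enzyme, and Hpgds, a prostaglandin synthase of the GST family, rose by 3.10 and 2.20 with no overlap. Ephx2, the soluble epoxide hydrolase, fell by 1.05. The macrophage marker sums above rose in the same livers, and their part in these values was not tested.

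**Figure D5:**
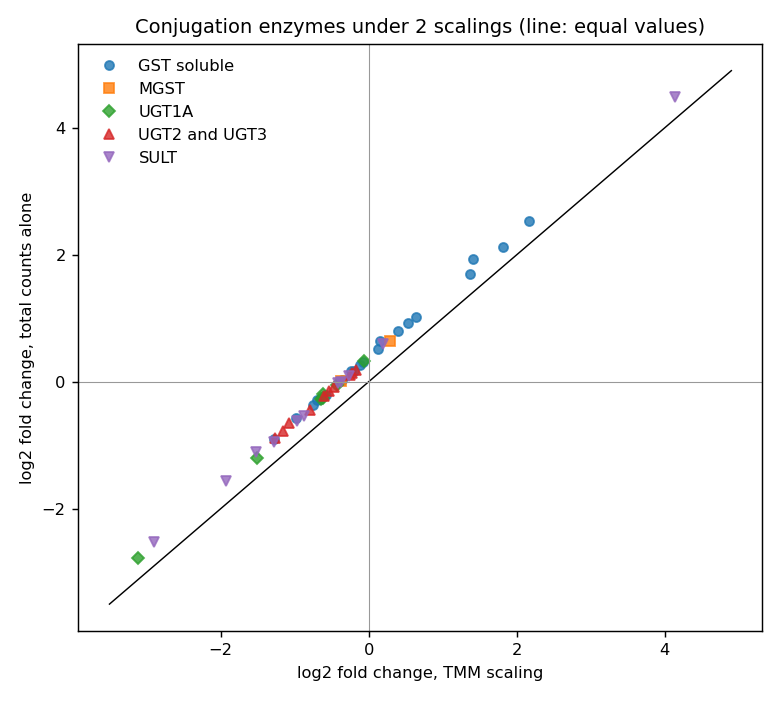
Log2 fold change of each of the 50 tested enzymes with TMM scaling (horizontal axis) and with total counts alone (vertical axis), by family, with the line of equal values. All 50 points lie above the line, and values near 0 change sign.

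Of the 18 enzymes called lower, 9 were also called lower with total counts alone, namely Gsta3, Gstt3, Sult1c2, Sult2a7, Sult2a8, Ugt1a5, Ugt1a9, Ugt2a3 and Ugt2b1. All 7 called higher were also called higher there, with Gsta4, Gstt2 and Mgst3 in addition.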

How the data were processed

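The 24 libraries were made from poly(A) RNA of whole livers. The authors deposited raw read counts per Ensembl gene, 1 column per library, unfiltered and not normalized. The submitters' processing notes name bcl2fastq, STAR 2.7.3a and mm10. The study's methods describe a stranded library kit, and gene quantification with PISCES after alignment to a human reference. Whether these were used for the mouse libraries, and their annotation and strand setting, are not given in the sources used here, so opposite-strand overlaps may share reads. Symbols, lengths and coordinates came from GENCODE M21, which named 51745 of 56205 rows. Rows without a symbol held 0.0808% of counts. 0 columns were left unused.

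Genes were kept with filterByExpr by diet, scaled by TMM and tested with edgeR 4.0.16 (R 4.3.3) over all 24 libraries without a covariate, with Benjamini-Hochberg FDR over all 14109 genes. A gene was called at FDR ≤ 0.01 with a log2 fold change beyond 0.5 in either direction. SEs were taken from the fold change and the F statistic (its size over the root of F). The log2 CPM prior count was 2. Levels per kilobase used the longest transcript. The score fit added the sex-linked score to diet. Per family, a naming rule picked up to 3 genes called higher and 3 called lower by size, and the highest per kilobase in control. It also picked up to 4 genes with the largest score coefficient and up to 3 per partner list. Not all values are printed for the score and partner genes. Other names in the text were chosen after their values were seen. Members and lists were chosen with earlier results of these data known. The fits were also run on simulated counts, drawn with the dispersions of these data. Those held no outlying library and no shift between scalings, so that run does not bear on either. Alternatives were other scalings and filters, DESeq2 1.42.0, limma-voom 3.58.1, a replicate block, the score as covariate, other thresholds and leaving out each library. Some genes of the partner lists are counted but not reported here by name.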

Additional observations from a re-analysis of the deposited data

How the results depend on the processing

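Counts given here are of the 50 conjugation enzymes and of the 59 tested partner genes (10 higher, 21 lower). With total counts alone 9 enzymes and 5 partner genes were lower, and with upper-quartile factors 12 enzymes and 13 partner genes were lower. Upper-quartile factors ended the calls of Gstm7 (-0.50), Gstz1 (-0.42), Ugt1a1 (-0.47), Ugt1a6a (-0.49), Ugt2b36 (-0.38) and Ugt3a1 (-0.44). With at least 10 counts in every sample 5 partner genes were higher, and the call of Gstz1 was lost (-0.49). With a log2 limit of 1, 8 enzymes were lower, and 6 partner genes were higher and 3 lower. With an FDR of 0.05 without a fold limit 34 partner genes were lower. The cause was not tested where scaling changed a count; the stricter limits and filter call or test fewer genes by construction. Leaving out each library gave 5 to 8 enzymes higher, 17 to 19 lower, 9 to 11 partner genes higher, 17 to 22 lower, and 14 to 17 enzymes that moved with the score.

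With a replicate block 7 enzymes were higher and 17 lower, and 3 instead of 15 moved with the score. In 10 of 12 numbers both libraries were in the same score range, so the block takes up most of the score by construction and that count says nothing of its stability. The labels do not say what a number shares, and 8 of 12 same-number pairs, not all, had a correlation above 0.1 (-0.280 to 0.349, median 0.233, against a median of -0.0592 for other pairs), so the numbers were not taken as pairs. In all, 2 control libraries correlated best with their own number.

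Log2 fold changes that turned sign were all of enzymes not called. With total counts alone they were 0.32 (Gstm1), 0.0256 (Gstm4), 0.17 (Gstm6), 0.18 (Gsto1), 0.26 (Gstp3), 0.019 (Mgst1), 0.0843 (Sult1d1), 0.32 (Ugt1a7c), 0.14 (Ugt2b35), 0.19 (Ugt2b37) and 0.11 (Ugt3a2). With upper-quartile factors they were 0.0741 (Gstm1), 0.034 (Gstp3) and 0.0891 (Ugt1a7c). With at least 10 counts in every sample Gstm1 was 0.0059 and Ugt1a7c 0.0194. With the replicate block Gstm1 was 0.0052, and with limma-voom Sult2a2 was 0.46. Leaving out 1 library gave Gstm1 -0.12 to 0.13, Gstp3 -0.17 to 0.0029 and Ugt1a7c -0.12 to 0.0229. Of 443 log2 fold changes under the other alternatives 398 kept direction and side of the threshold, 23 lost a call and 4 gained one. All 234 share differences moved by less than 1 SD between livers. The 17 untested genes reached the filter's count level in too few libraries, Sult3a1 and Sult2a3 in spite of high counts in 5 control libraries.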

Other observations

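A test of whether the diet effect differed between the 2 score ranges was added after the values were seen. In an edgeR fit with a diet by score term, 0 of the 50 enzymes passed an FDR of 0.01, 11 had an unadjusted p under 0.05 and 1 passed an FDR of 0.05. Of the 14109 tested genes 0.418%, 13.7% and 1.35% did so. The enzyme at 0.05 was Mgst1 (edgeR FDR 0.0358), with a fitted log2 fold change of -0.69 (SE 0.14) at a mean lower score of -6.73 and 0.13 (SE 0.14) at a mean upper score of 11.3. The next 3 by interaction FDR passed neither limit. Gstk1 was at -1.06 (SE 0.15) and -0.29 (SE 0.15, edgeR FDR 0.117 at the upper score), with an interaction FDR of 0.0752. Sult1e1 was at 5.77 (SE 0.57) and 3.20 (SE 0.47), with an interaction FDR of 0.0906. Ugt3a1 was at -0.96 (SE 0.16) and -0.17 (SE 0.16, edgeR FDR 0.398 at the upper score), with an interaction FDR of 0.0934. No other tool was run for this term.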
